A study of Oryza nivara and Oryza rufipogon with 42 samples.

Results

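The heading panicle and the flag leaf of the wild rice Oryza rufipogon were compared through 12 digital gene expression (DGE) libraries, 6 of each organ, out of 36 DGE libraries and 42 samples in all. The members were taken by their labels: panicles and flag leaves of this species, both at the heading stage, when the panicle emerges from the sheath of the uppermost leaf. DGE counts short tags cut next to a restriction site in the 3′ region of each transcript. The same 6 title numbers occur in both organs, each with the same collection year and origin, and were read as plants and used as pairs. Plants 43, 47 and 49 were collected in 2009 and plants 95, 199 and 230 in 2010. Plant 43 came from Thailand, plant 95 from Myanmar and the others from India. All were raised from seed in a greenhouse at 25 to 35 °C with no treatment named.

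The flag leaf is the last leaf made before flowering and a main source of sugar for the grain. The panicle carries the spikelets, whose organs are specified by MADS-box transcription factors acting in combination and whose anthers hold the tapetum, a nurse tissue for pollen. Leaves invest much of their mRNA in light harvesting and carbon fixation. Whether fewer cells of a type or less RNA per cell lies behind a lower level cannot be told apart in such bulk samples. The files pair no locus with a gene name, so the symbols used here come from general knowledge of published rice loci, were not checked against an annotation, and are printed with their locus.

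Library totals ran from 1873240 to 4164766 counts and were higher in the plants of 2010 than in those of 2009. Levels are CPM, the counts scaled to a common library total after TMM adjustment, and differences are log2 values of panicle minus leaf from a paired edgeR fit. Organ went with the first principal component, which held 44.5% of the variance, and year with the second, which held 20.4%. Depth and origin differ with year, and their part in any difference between years was not tested. The labelled organs matched their marker lists: floral MADS genes took 0.246 to 0.362% of counts in panicles and 0.0189 to 0.09102% in leaves, and the Calvin cycle list took 0.121 to 0.992% and 3.003 to 10.3%.

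Among the 20134 genes of the deposited table, panicles spread their transcripts over more genes than leaves did. Each gene in it reached 5 TPM (tags scaled to a fixed library total) in at least 4 of the 36 DGE libraries. More of these libraries were panicles than leaves, so genes of panicles could enter the table more easily. The part of this selection in the counts of detected genes was not tested. At a common depth of 1873240 counts, 18977 to 19679 genes were detected in each panicle and 17570 to 18871 in each leaf. The panicle of the same plant held more genes in 6 of 6 pairs, by a mean of 1231 ± 368 (SD, n = 6; exact paired permutation test, two-sided, p = 0.03125, the smallest that 6 pairs allow). The 100 most abundant genes took 15.7 to 25.1% of panicle counts and 30.7 to 40.2% of leaf counts, and this share was lower in the panicle in 6 of 6 pairs (same exact test, p = 0.03125). Within years the mean difference in detected genes was 1195 in 2009 and 1267 in 2010.

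Of 16613 genes tested, 2943 were higher in the panicle (17.7%) and 2687 were lower (16.2%) at an adjusted p under 0.05, together 33.9% (edgeR quasi-likelihood test, Benjamini-Hochberg). The median log2 difference over all tested genes was 0.09. Every panicle lay above every leaf for 1546 genes (9.31%), and every leaf above every panicle for 1237 (7.45%). Differences of at least 8-fold were found for 1042 of the higher and 859 of the lower genes. Lists of genes with known roles are read against these shares, as descriptions, since a gene that is high in 1 organ passes the low-count filter through that organ.

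**Figure D1:**
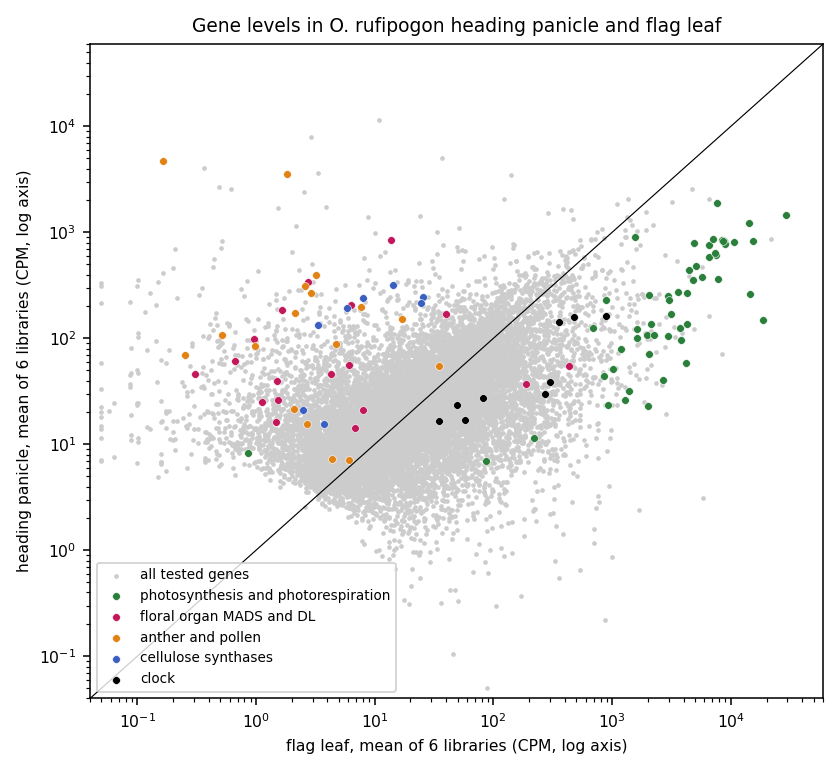
Mean level of each tested gene in 6 flag leaves (horizontal) and 6 heading panicles (vertical), in CPM on log axes, with means under 0.05 CPM drawn at 0.05. The black line marks equal levels, and all photosynthesis and photorespiration genes but RBCS1 lie below it and floral MADS genes mostly above it.

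The genes that specify floral organs stood apart between the organs. Of 18 floral MADS-box and DL genes tested, 15 were higher in the panicle and 2 lower, with a median log2 difference of 4.42. The B-class genes of petal-like lodicules and stamens were among them. OsMADS16 (LOC_Os06g49840), the most abundant of the list, ranged from 384 to 1762 CPM in the panicles, with a median of 714, and from 4.66 to 26.7 in the leaves, with a median of 11.7 (log2 difference 6.15, SE 0.52, adjusted p = 7.51e-05). No leaf reached the lowest panicle. Its partner OsMADS4 (LOC_Os05g34940) ranged from 17.4 to 67.8 CPM in the panicles, with a median of 54.03, and from 0 to 0.697 in the leaves, with a median of 0.265 (log2 difference 7.12, SE 0.58, adjusted p = 7.51e-05). The second PISTILLATA-type gene, OsMADS2 (LOC_Os01g66030), ranged from 54.3 to 380.0 CPM in the panicles, with a median of 145, and from 0 to 2.59 in the leaves, with a median of 1.94 (log2 difference 6.57, SE 0.69, adjusted p = 0.000139).

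The E-class genes act with the other classes in whorl identity, and one of them had the largest log2 difference of the list. OsMADS7 (LOC_Os08g41950) ranged from 219 to 486 CPM in the panicles, with a median of 350.1, and from 1.04 to 8.003 in the leaves, with a median of 1.75 (log2 difference 7.20, SE 0.55, adjusted p = 7.51e-05). All 6 panicles lay far above all 6 leaves. OsMADS6 (LOC_Os02g45770), an AGL6-type gene of floral organ and meristem identity, ranged from 39.9 to 183 CPM in the panicles, with a median of 77.7, and from 0 to 3.04 in the leaves, with a median of 0.174 (log2 difference 7.09, SE 0.66, adjusted p = 9.9e-05). For 14 of the 18 tested genes no panicle overlapped a leaf.

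The AP1/FUL-type genes, which act in the floral transition, divided. OsMADS14 (LOC_Os03g54160) ranged from 26.2 to 122 CPM in the panicles, with a median of 46.1, and from 105 to 836 in the leaves, with a median of 398, and was lower in the panicle (log2 difference -2.81, SE 0.67, adjusted p = 0.00856). In plant 47 alone the panicle was above the leaf, at 122 against 109 CPM, while the RNA-seq of that plant had 15.2 RPKM in its panicle and 72.9 in its leaf. OsMADS18 (LOC_Os07g41370) was lower in the panicle in 6 of 6 pairs (log2 difference -2.08, SE 0.37, adjusted p = 0.00188). Its panicle levels were 9.59 to 15.9 CPM in 2009 and 39.2 to 79.5 in 2010, and its leaf levels 31.7 to 41.9 and 291 to 430.3. Levels of 2010 exceeded those of 2009 in both organs, and the organs overlapped across years but not within one. OsMADS15 (LOC_Os07g01820), named after its values were seen, went the other way (log2 difference 2.64, SE 0.70, adjusted p = 0.0144), from 97.6 to 215 CPM in the panicles, with a median of 170.0, and from 2.12 to 78.8 in the leaves, with a median of 39. Among plants of 2009 alone, none of these 3 genes passed the test.

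**Figure D2:**
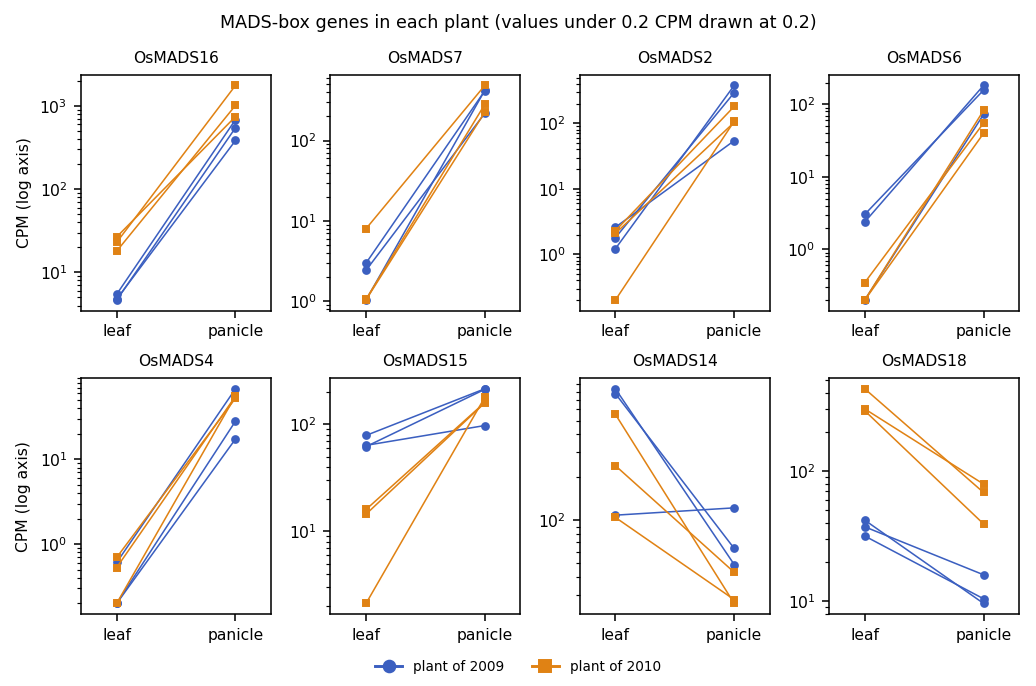
CPM (log axis) of 8 MADS-box genes in the flag leaf and heading panicle, with a line for each plant and colour for the collection year. Lines rise from leaf to panicle for 6 genes in every plant, fall for OsMADS18 in every plant and fall for OsMADS14 in all but plant 47.

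Genes of meristems and panicle form were also higher in panicles, 9 of 12 tested with none lower (median log2 difference 2.42). YAB1 (LOC_Os07g06620), a YABBY factor of flower development, ranged from 207 to 1108 CPM in the panicles, with a median of 497, and from 4.14 to 15.9 in the leaves, with a median of 6.95 (log2 difference 5.97, SE 0.59, adjusted p = 0.000117). The KNOX genes OSH15 (LOC_Os07g03770) and OSH71 (LOC_Os05g03884), which maintain meristem cells, differed by 5.18 and 5.03 (adjusted p = 0.000157 and 0.000117). Both were under 3 CPM in every leaf. SH5 (LOC_Os05g38120), a BELL-type homeobox gene of seed shattering, differed by 4.38 (adjusted p = 0.00017). Of the 34 listed genes only 20 were in the DGE table, and 8 of these did not pass the low-count filter.

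Anther genes were higher in panicles and uneven among them. The list took 0.274 to 3.39% of panicle counts and 0.00474 to 0.0115% of leaf counts. Of 17 genes tested, 12 were higher in the panicle and none lower, and 9 further members did not pass the low-count filter. RTS (LOC_Os01g70440), a tapetum gene, ranged from 615 to 11094 CPM in the panicles, with a median of 3637, and from 0 to 0.608 in the leaves, with a median of 0. It held 112336 counts in the 6 panicles and 2 in the 6 leaves, a ratio whose 95% counting interval ran from 8996 to 268340 (adjusted p = 7.51e-05). Intervals cover counting error only.

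OsC6 (LOC_Os11g37280), a lipid transfer protein of the anther, ranged from 5.68 to 14134 CPM in the panicles, with a median of 1693, and from 0 to 6.27 in the leaves, with a median of 0.862 (log2 difference 9.96, SE 1.96, adjusted p = 0.00317). Plant 49 was at 5.68 CPM, near the leaves, where the other 5 panicles held at least 909, and the call was lost among plants of 2009 alone (adjusted p = 0.0611). A pair of sporopollenin synthesis genes of the pollen wall followed another order of plants. ACOS12 (LOC_Os04g24530), an acyl-CoA synthetase, stood at 1111 CPM in plant 43 and 3963 in plant 199, and at most 14.2 in the other 4 panicles. CYP704B2 (LOC_Os03g07250), a fatty acid hydroxylase, stood at 782 and 2281 CPM in those plants and at most 11.4 elsewhere. Both were named after their values were seen, and neither passed the low-count filter.

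Some tapetum regulators were present in more plants. EAT1 (LOC_Os04g51070), a bHLH factor of tapetal cell death, ranged from 3.55 to 212 CPM in the panicles, with a median of 48.8, and from 0 to 0.608 in the leaves, with a median of 0.191 (log2 difference 7.82, SE 0.84, adjusted p = 0.000147). TDR (LOC_Os02g02820), another such factor, was at 0 in the panicle of plant 49 and at 658 CPM in that of plant 199. A pair of sugar genes of the anther had another order: INV4 (LOC_Os04g33720), a cell wall invertase, was lowest in plant 199 at 2.73 CPM and reached 163 in plant 49. MST8 (LOC_Os01g38670), a hexose transporter, was at 8.64 and 77.8 CPM in the same panicles. The wall genes did not share 1 order of plants: ABCG26 (LOC_Os10g35180), a lipid exporter of the tapetum, stood at 53.9 CPM in plant 199 and 42.7 in plant 43, below plants 47, 95 and 230, and was lowest in plant 49 at 22.02 (log2 difference 7.58, SE 0.66, adjusted p = 8.33e-05). Of 3 late pollen genes only OsMADS63 (LOC_Os06g11970) was tested, at 1.14 to 38.4 CPM in panicles. It was not called, but DESeq2 and the fit without plant pairs called it higher.

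**Figure D3:**
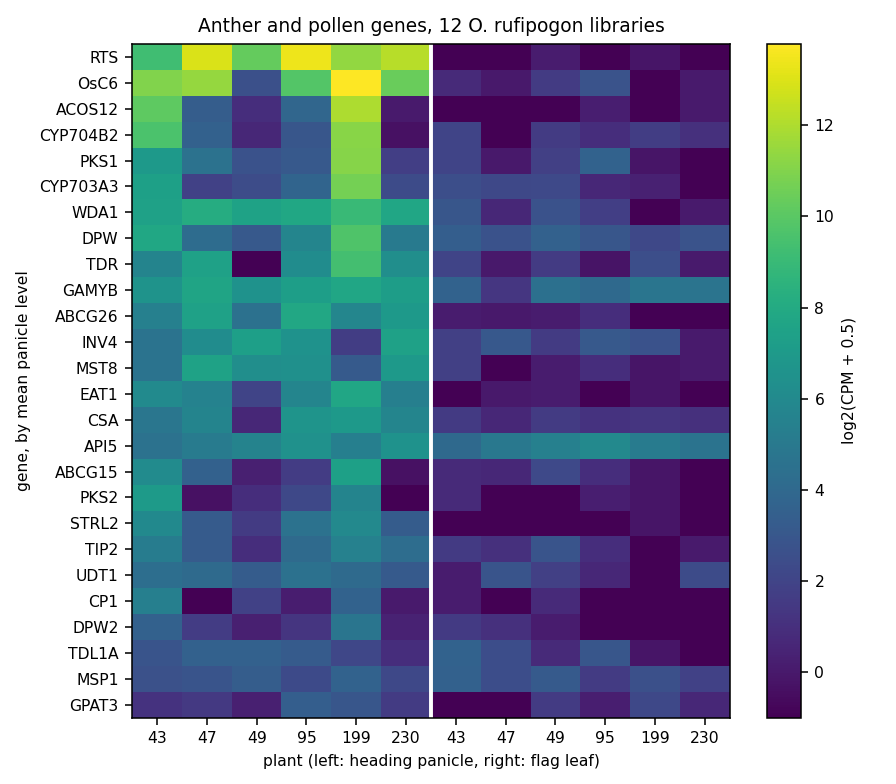
Level of 26 anther and pollen genes as log2(CPM + 0.5), colour scale, in 6 heading panicles (left) and 6 flag leaves (right), ordered by mean panicle level. RTS is high in all panicles, ACOS12 and CYP704B2 stand out in plants 43 and 199, and OsC6 is low in plant 49.

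Of 8 meiosis genes tested, 2 were higher in the panicle and none lower. That share, 25%, was not far from the 17.7% of all tested genes. PAIR2 (LOC_Os09g32930), a chromosome axis protein, ranged from 3.82 to 18.4 CPM in the panicles, with a median of 11.2, and from 0 to 1.04 in the leaves, with a median of 0.174 (log2 difference 5.02, SE 0.66, adjusted p = 0.000336). MEL1 (LOC_Os03g58600), an Argonaute of germ cells, differed by 2.24 (adjusted p = 0.0116), a call lost in the fit of all 36 libraries (adjusted p = 0.0641). Of 11 cell cycle genes, 6 were higher and 1 lower. MCM4 (LOC_Os01g36390), a subunit of the replicative helicase, ranged from 7.25 to 39.8 CPM in the panicles, with a median of 12.3, and from 0 to 1.55 in the leaves, with a median of 0.304 (log2 difference 4.97, SE 0.66, adjusted p = 0.000358). A subunit of the same helicase, MCM5 (LOC_Os02g55410), was lower in the panicle (log2 difference -2.25, SE 0.54, adjusted p = 0.00951), a call lost among plants of 2009 alone (adjusted p = 0.171). In the RNA-seq of plant 47 its direction was opposite, with 4.54 RPKM in its panicle and 0.0797 in its leaf, and in the DGE of that plant the log2 difference was 0.43.

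Cellulose synthase genes were higher in panicles for 7 of 8 tested, with a median log2 difference of 3.94. The genes of secondary walls led. CESA4 (LOC_Os01g54620) ranged from 109 to 342 CPM in the panicles, with a median of 285, and from 0 to 27.2 in the leaves, with a median of 2.101 (log2 difference 6.11, SE 0.87, adjusted p = 0.000526). CESA7 (LOC_Os10g32980) and CESA9 (LOC_Os09g25490) differed by 5.84 and 5.40 (adjusted p = 0.000347 and 0.000434). For each of these 3 genes all panicles lay above all leaves. CESA6 (LOC_Os07g14850) was the most abundant, from 19.5 to 689 CPM in the panicles, with a median of 261, and from 3.43 to 24.8 in the leaves, with a median of 13.2 (log2 difference 4.17, SE 0.81, adjusted p = 0.00298), a call lost among plants of 2010 alone (adjusted p = 0.0868).

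Photosynthesis genes were lower in panicles almost without exception. All 19 genes of the photosystem cores and electron transport were lower (median log2 difference -3.71), as were 12 of 13 antenna genes (-3.79), 13 of 14 Calvin cycle genes (-4.82) and all 8 of photorespiration (-4.74). The most abundant leaf gene was RBCS3 (LOC_Os12g19381), a Rubisco small subunit, from 83.99 to 3868 CPM in the panicles, with a median of 743, and from 11970.2 to 45639 in the leaves, with a median of 26664 (log2 difference -5.05, SE 0.79, adjusted p = 0.000882). Close copies of this family may share tags, so values of single copies are uncertain. RBCS2 (LOC_Os12g17600) differed by -7.73 (adjusted p = 0.000226). Another copy, RBCS1 (LOC_Os02g05830), was the exception and was higher in the panicle, from 3.66 to 15.7 CPM in the panicles, with a median of 7.64, and from 0 to 2.07 in the leaves, with a median of 0.647 (log2 difference 3.25, SE 0.71, adjusted p = 0.00543, and 0.0686 among plants of 2009 alone).

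Rubisco activase, RCA (LOC_Os11g47970), ranged from 2.43 to 68.9 CPM in the panicles, with a median of 9.13, and from 147 to 6049 in the leaves, with a median of 1231 (log2 difference -6.26, SE 0.60, adjusted p = 0.000109). It was higher in 2010 than in 2009 in both organs. Chloroplast aldolase, FBA (LOC_Os11g07020), differed by -5.31 (adjusted p = 0.000524). In photorespiration, SGAT (LOC_Os08g39300), a serine aminotransferase, ranged from 2.43 to 168 CPM in the panicles, with a median of 14.99, and from 642 to 7685 in the leaves, with a median of 4082 (log2 difference -6.98, SE 0.69, adjusted p = 0.000117), and GLO1 (LOC_Os03g57220), glycolate oxidase, differed by -5.73 (adjusted p = 0.000117). SGAT, like RCA, was higher in 2010 than in 2009 in both organs. Every leaf lay above every panicle for all 8 genes of the photorespiration list.

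In electron transport PETC (LOC_Os07g37030), the Rieske protein, ranged from 41.3 to 205 CPM in the panicles, with a median of 119, and from 3093 to 4367 in the leaves, with a median of 3746 (log2 difference -5.08, SE 0.59, adjusted p = 0.000183). FNR2 (LOC_Os02g01340), which reduces NADP, differed by -5.61 (adjusted p = 0.000513). Among antenna genes LHCB5 (LOC_Os11g13890) ranged from 20.1 to 1822 CPM in the panicles, with a median of 539.6, and from 3504 to 11027 in the leaves, with a median of 6008 (log2 difference -4.56, SE 0.98, adjusted p = 0.00512). The antenna gene that was not called was an LHCB1 gene, LOC_Os01g52240, named after its values were seen (log2 difference -0.36, SE 1.09, adjusted p = 0.826). Panicles were not free of these transcripts: the antenna list took 0.257 to 1.38% of panicle counts and 2.56 to 5.91% of leaf counts.

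Chlorophyll synthesis followed, 8 of 11 genes lower and none higher. CHLH (LOC_Os03g20700), a magnesium chelatase subunit, ranged from 59 to 294 CPM in the panicles, with a median of 152, and from 2387 to 3680.0 in the leaves, with a median of 2692 (log2 difference -4.37, SE 0.57, adjusted p = 0.000331). PORA (LOC_Os04g58200), a protochlorophyllide reductase named after its values were seen, was not called (log2 difference 2.70, SE 1.41, adjusted p = 0.168), but was called higher by DESeq2 (2.75, adjusted p = 0.00644), with all 36 libraries (2.31, 0.0101) and among plants of 2010 alone (5.67, 0.00794). Its leaf levels were 277 to 1901 CPM in 2009 and 1.14 to 21.2 in 2010, with panicles at 447 to 537 and 329.7 to 729. The leaf levels differed between years without overlap. Of 6 chlorophyll breakdown and senescence genes 4 were lower in panicles, led by NYC3 (LOC_Os06g24730) (log2 difference -3.25, SE 0.51, adjusted p = 0.000871).

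**Figure D4:**
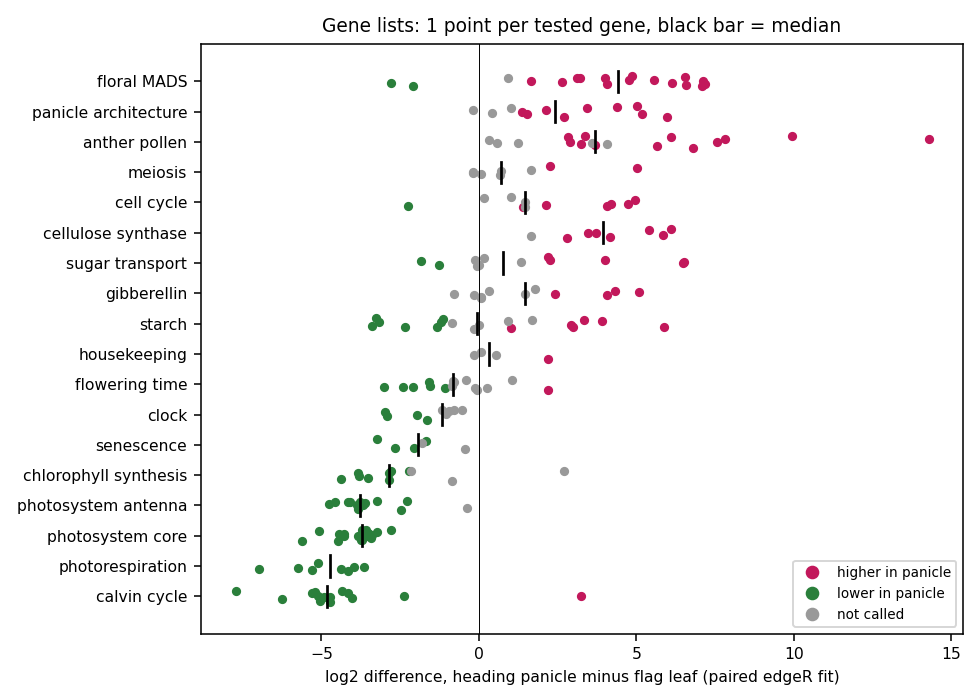
Log2 difference, heading panicle minus flag leaf, of every tested gene in 18 lists, with 1 point for each gene coloured by its call and a black bar at the median. Floral MADS and cellulose synthase genes lie to the right, photosynthesis and photorespiration genes to the left, and starch genes on both sides.

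Clock genes were lower in panicles for 4 of 9 tested and higher for none. PRR95 (LOC_Os09g36220), a pseudo-response regulator, ranged from 12.5 to 54.3 CPM in the panicles, with a median of 28.3, and from 65.8 to 620.0 in the leaves, with a median of 214 (log2 difference -2.99, SE 0.43, adjusted p = 0.000575). PRR37 (LOC_Os07g49460) and PRR73 (LOC_Os03g17570) differed by -2.92 and -1.65 (adjusted p = 0.000628 and 0.0055). LHY (LOC_Os08g06110), a morning-phased MYB factor, was lower in 6 of 6 pairs (log2 difference -1.96, SE 0.49, adjusted p = 0.0107). Among plants of 2009 alone neither LHY nor PRR73 passed the test (adjusted p = 0.183 and 0.162). In plant 47 the log2 difference of LHY was -2.95 by DGE, but RNA-seq had 28.5 RPKM in the panicle and 27.8 in the leaf. Year divided it within each organ: panicles held 28.1 to 41.3 CPM in 2009 and 212 to 433 in 2010, and leaves 46.8 to 252 and 637 to 2664. GI (LOC_Os01g08700), an evening-phased gene named after its values were seen, was divided the other way, with 104 to 489 and 22.97 to 38.8 CPM in panicles and 348 to 1082 and 23.9 to 103 in leaves. The hour of sampling is not given in the sources used here.

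Among flowering time genes 6 of 15 were lower in the panicle and 1 higher. OsMADS55 (LOC_Os06g11330), an SVP-type gene, ranged from 9.23 to 57.8 CPM in the panicles, with a median of 21.6, and from 89.6 to 315 in the leaves, with a median of 190.4 (log2 difference -3.01, SE 0.43, adjusted p = 0.000548). SE5 (LOC_Os06g40080), which makes the phytochrome chromophore, differed by -2.09 (adjusted p = 0.00292, and 0.083 among plants of 2009 alone). OsMADS51 (LOC_Os01g69850) was lower (log2 difference -2.40, SE 0.66, adjusted p = 0.0178), but not past the threshold without plant 43 (adjusted p = 0.0574) or plant 230 (0.0512), or among plants of 2009 alone (0.192). In plant 47 it went the other way in both assays, at 206 CPM in the panicle and 127 in the leaf by DGE, and 55.3 RPKM in the panicle and 28.2 in the leaf by RNA-seq. The florigen gene Hd3a (LOC_Os06g06320), shown with its values known, did not pass the low-count filter and had a leaf maximum of 20.7 CPM.

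Starch genes divided by isoform, 6 of 18 higher in the panicle and 7 lower, with a median near 0 (-0.07, and from -0.38 to 0.15 across the alternative settings). GBSSII (LOC_Os07g22930), the granule-bound starch synthase of leaves, ranged from 15.1 to 167 CPM in the panicles, with a median of 60.3, and from 126 to 1618 in the leaves, with a median of 793 (log2 difference -3.38, SE 0.42, adjusted p = 0.000249). SSIIb (LOC_Os02g51070) was likewise lower (log2 difference -3.28, SE 0.40, adjusted p = 0.000227). Its paralog SSIIa (LOC_Os06g12450) ranged from 10.2 to 34.8 CPM in the panicles, with a median of 17.7, and from 0 to 1.04 in the leaves, with a median of 0 (log2 difference 5.90, SE 0.68, adjusted p = 0.000186). SSIIIa (LOC_Os08g09230) and SSIIIb (LOC_Os04g53310) also took opposite directions, at 2.98 and -2.35 (adjusted p = 0.000944 and 0.00472).

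ADP-glucose pyrophosphorylase, which makes the substrate of starch synthesis, showed the same division. The large subunit AGPL3 (LOC_Os03g52460) ranged from 21.2 to 49.7 CPM in the panicles, with a median of 36.7, and from 109.7 to 447 in the leaves, with a median of 372 (log2 difference -3.18, SE 0.48, adjusted p = 0.0007). The small subunit AGPS1 (LOC_Os09g12660) ranged from 40.8 to 146 CPM in the panicles, with a median of 58.6, and from 2.99 to 6.36 in the leaves, with a median of 3.995 (log2 difference 3.92, SE 0.44, adjusted p = 0.00017). The branching enzyme BEIIb (LOC_Os02g32660) was higher in the panicle (log2 difference 3.32, SE 0.47, adjusted p = 0.000486), in 6 of 6 pairs.

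**Figure D5:**
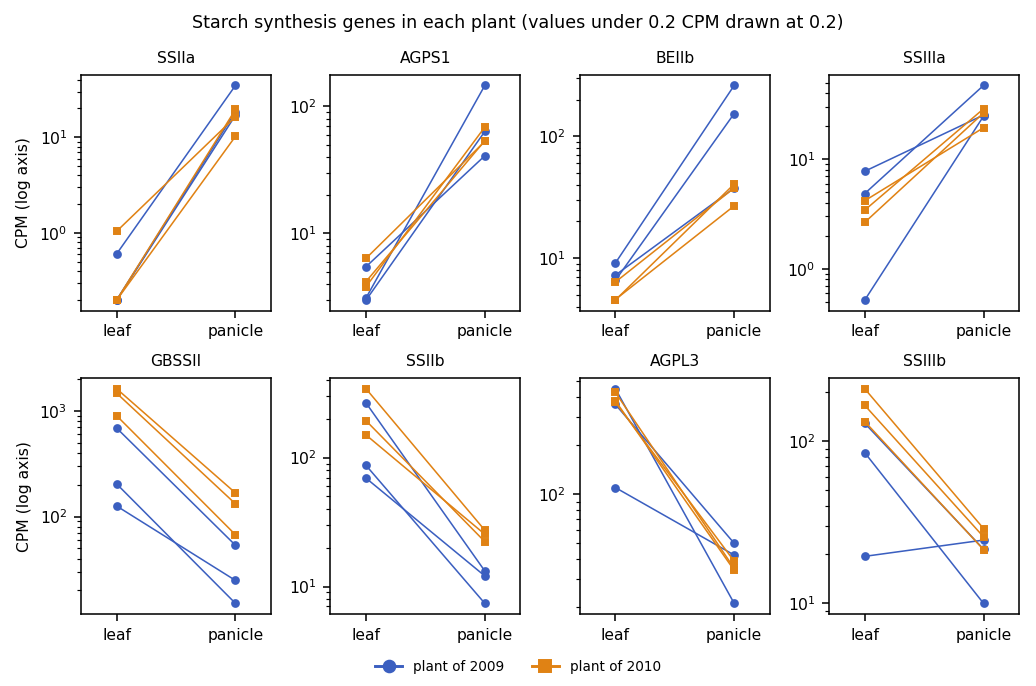
CPM (log axis) of 8 starch synthesis genes in the flag leaf and heading panicle of each plant, coloured by collection year. SSIIa, AGPS1, BEIIb and SSIIIa rise from leaf to panicle in every plant, while GBSSII, SSIIb and AGPL3 fall in every plant and SSIIIb in all but 1.

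Sugar transport and cleavage genes were higher for 5 of 12 tested (41.7%) and lower for 2 (16.7%, beside 16.2% of all tested genes). SWEET11 (LOC_Os08g42350), a sucrose exporter, ranged from 56.8 to 233 CPM in the panicles, with a median of 118, and from 0 to 5.47 in the leaves, with a median of 0.572 (log2 difference 6.52, SE 0.92, adjusted p = 0.000491). CIN2 (LOC_Os04g33740), a cell wall invertase, differed by 6.48, while CIN1 (LOC_Os02g33110), of the same family, differed by -1.84 (adjusted p = 0.000262 and 0.00704). The CIN1 call was lost among plants of 2009 alone (adjusted p = 0.0552). SUT2 (LOC_Os12g44380), a sucrose transporter, was lower (log2 difference -1.26, SE 0.41, adjusted p = 0.0368), a call lost without plant 43, 95, 199 or 230 (adjusted p from 0.0826 to 0.114) or among plants of 2009 alone (0.443). Gibberellin genes were higher for 4 of 11 (36.4%), of both synthesis and inactivation: GA20ox1 (LOC_Os03g63970) at 4.33 and GA2ox1 (LOC_Os05g06670) at 5.08 (adjusted p = 0.000183 and 0.000205). Of 4 jasmonate genes 1 was higher (25%, beside 17.7% of all tested genes), AOS2 (LOC_Os03g12500) (log2 difference 2.39, SE 0.64, adjusted p = 0.0155). It missed the threshold without plant 43 (adjusted p = 0.05102) or among plants of 2009 alone (0.107). Of 4 housekeeping genes 1 was higher (25%), ACT1 (LOC_Os03g50885) (log2 difference 2.21, SE 0.35, adjusted p = 0.000947).

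Genes read in 1 organ only were mostly panicle genes. With at most 3 counts over the 6 libraries of an organ and at least 5 CPM in each of the other 6, 63 of 20134 genes were on in the panicle alone and 1 in the leaf alone. The limit of 3 is in raw counts. TMM factors were 1.11 to 1.44 in panicles and 0.667 to 0.879 in leaves, so the same CPM gives fewer counts in a leaf. The rule for off was thus easier to meet in leaves. The 20134 genes also each reached 5 TPM in at least 4 of the 36 DGE libraries, most of which were panicles. The part of the rule or of this selection in the imbalance was not tested. RTS was the only listed gene among those on in 1 organ alone. The leaf gene, LOC_Os11g19240, had 1 count in the panicles and 1115 in the leaves. Among genes with a mean of at least 50 CPM in the higher organ and the same sign in all 6 pairs, the largest difference after RTS was that of LOC_Os01g41170, at 4076 ± 2940.3 CPM (SD, n = 6) in panicles and 4 counts in leaves. In the other direction LOC_Os12g33120 stood at 877 ± 599.8 CPM in leaves, with 4 counts in panicles. The most abundant panicle gene was LOC_Os10g05720, from 112 CPM in plant 49 to 32629 in plant 95.

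RNA-seq of the same organs of plant 47, 1 library each and so with no test, gave a second measure. Calls for this comparison were made from the other 5 plants. Of 2815 genes called higher and with at least 1 RPKM, 2789 (99.1%) were also higher by RNA-seq, and of 2548 called lower, 2149 (84.3%) were lower. Of all 21409 genes at that level 74.7% were higher in the panicle, with a median of 0.84 on the log2(RPKM + 1) scale. OsMADS7 was at 414 RPKM in its panicle and 0 in its leaf, and GBSSII at 9.19 RPKM in its panicle and 45.5 in its leaf. OsMADS8 (LOC_Os09g32948), an E-class gene that did not pass the low-count filter in DGE and is given here with its values known, stood at 201 RPKM in its panicle and 0 in its leaf.

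The difference between organs was set against that of O. nivara, a related annual wild rice, in 24 libraries. Pairing was incomplete in O. nivara: 1 library of each organ had no partner. With the plant block the organ difference therefore rested on 22 libraries. The species by organ interaction was past the threshold for 1 of 19033 genes (0.00525%) in edgeR, while 1178 had p under 0.05 before adjustment, and for no listed gene. That gene, LOC_Os01g65850, was at 101 ± 81.1 CPM in O. rufipogon panicles and 13.97 ± 7.57 in leaves, and at 2.32 ± 1.001 and 19.5 ± 16.1 in O. nivara (SD, n = 6; interaction 5.30, SE 0.70, adjusted p = 0.0356). Without the plant block edgeR also called 1 gene, but another one and of the opposite sign, so the call of LOC_Os01g65850 was lost. Its call was kept in edgeR on only the plants with both organs, and in DESeq2, which called 54 genes. A gene that missed the threshold is not thereby shown to differ equally between organs in both species. The interaction with year passed for 1 of 16613 genes (0.00602%), LOC_Os07g34570, while 1812 had p under 0.05 before adjustment. Its leaves held 4163 to 13320 CPM in 2009 and 0.530 to 4.18 in 2010, and its panicles 336 to 1045 and 37.1 to 162. Without any interaction, a share of about 0.05 of tested genes has a p under 0.05. An excess over that share was not tested for species or year.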

How the data were processed

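Per the file headers, deposited values were gene-level counts of DGE tags, TPM (here tags scaled to a fixed library total, without gene length) and, for RNA-seq, RPKM. Per the submitters' processing notes BWA and edgeR 3.6.8 were used. Build and annotation: not given in the labels or headers. The deposited counts were tested by quasi-likelihood in edgeR 4.0.16 under R 4.3.3: TMM factors over all 36 libraries, filterByExpr on the 12, plant as a block, Benjamini-Hochberg at 0.05. Standard errors are the log2 difference over the root of F. The deposited TPM served only to check library totals: 0.731 to 2.83% of counts lay outside the listed genes. The deposited RPKM were compared as log2(RPKM + 1); their depth is unknown.

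Libraries were paired by title number. Deviations from the organ means correlated at 0.15 to 0.557 across genes in all 6 pairs, values that include any difference between years shared by both organs. Within years they ran from -0.125 to 0.406 and were below 0 for plants 47 and 49 (-0.125 and -0.021). Mismatched pairs were not compared, so these correlations cannot decide whether a pair is 1 plant. The lowest mean chi-square per gene between libraries of an organ was 28, so none was a copy. P-values concern separate plants only as far as title numbers show. The table held 20134 genes, each at 5 TPM or more in at least 4 of the 36 DGE libraries. Strand use in counting is not stated, so antisense partners cannot be told apart.

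The members and the 20 lists (286 loci, 251 with counts and 219 tested) were chosen with earlier results of these data known. Named genes are, for each list, the 4 called members with the largest difference in the majority direction, up to 4 called in the other and the most abundant; over all genes, the 2 largest differences in each direction among called genes with 1 sign in all pairs and a mean of at least 50 CPM in the higher organ, and the most abundant gene of each organ; and the called interaction genes. Genes shown beyond this rule were chosen after their values were seen, namely OsMADS15, ACOS12, CYP704B2, TDR, INV4, MST8, OsMADS8, GI, PORA, Hd3a and an LHCB1 gene. The alternatives tried were other scalings, filters, tools and samples. On simulated data with 200 changed genes, the organ fit recovered 92.1% of log2 differences of 3 and 100% of those of 5. The species interaction fit recovered 44.4% and 89%. Neither fit recovered any of the smaller differences first tried, log2 1 and 2, although the estimates were close to the true values. The larger sizes were added after this was seen. In the real data the organ fit called 5630 genes, against 200 changed in the simulation. That loosens the Benjamini-Hochberg cutoff, so the simulated shares do not describe the organ fit. By its own shares the species interaction is limited to large differences and can miss many of these, and the year interaction was not simulated.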

Additional observations from a re-analysis of the deposited data

Results flagged for a closer look

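Of 166 groups of 6 libraries examined for a single library far from the rest, 6 were marked, where chance marks about 1 in 20. OsMADS2 was at 0 CPM in the flag leaf of plant 230, with the next leaf at 1.22. OsC6 was at 5.68 CPM in the panicle of plant 49, with the next panicle at 908.5. That panicle was also the lowest for LOC_Os01g41170, at 162.7 CPM against 1910.4 in the next, and for LOC_Os10g05720, at 111.5 against 3931. AGPL3 was at 109.7 CPM in the leaf of plant 47, with the next leaf at 357.9. LOC_Os11g19240 was at 0.284 CPM, a single count, in the panicle of plant 47 and at 0 in the other 5 panicles.

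The organ difference of LOC_Os01g65850 differed between species by 5.30 on the log2 scale, and that of LOC_Os07g34570 between collection years by 9.01, both by a test of the interaction.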

How the results depend on the processing

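Without the replicate block, 6099 genes were called, 5333 of them shared with the 5630 of the paired fit. Leaving out 1 plant gave 4299 to 5596 calls, with 2244 to 2891 higher and 2055 to 2705 lower. All 36 libraries gave 8531 (4777 higher), DESeq2 7206, and the plants of 2009 alone 2756 (1432 higher, 1324 lower). Upper-quartile scaling moved the median of all genes from 0.09 to 0.21 and the calls to 3295 higher and 2400 lower. The cause of these shifts was not tested. For the species interaction, the fit without the replicate block called 1 gene, of the opposite sign and 0 shared with the paired fit. DESeq2 called 54 genes for the species interaction (31 and 23 by sign) and 604 for year (268 and 336), and the year fit without the replicate block called 52 (20 and 32). Genes on in the panicle alone numbered 207 at 1 CPM and 30 at 10 CPM, and in the leaf alone 8 at 1 CPM.

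Of the gene values recomputed, 1236 kept their direction and side of the threshold, 34 lost the call, 10 gained it and 8 changed sign. Those 8 were the LHCB1 gene LOC_Os01g52240 (LHCB1.3), which ran from -1.09 to 0.40 on leaving out 1 plant (above 0 without plant 43 or 47) and was 1.64 in the plants of 2010, PORA in 2009 (-0.054), and LOC_Os07g34570 in 2009 (-3.72) and on leaving out 1 plant (-1.50 to 2.61, below 0 without plant 95, 199 or 230). Counts over the anther list ran from 7 to 21 higher across the settings, with none lower. Depth limits the lowest genes. The low-count filter left 3521 of 20134 genes untested, and not all of these were low. ACOS12, high in the panicles of plants 43 and 199 only, was left out with 20731 panicle counts.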
